A study of Mus musculus with 6 samples.

Results

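The nuclear-encoded respiratory chain genes are the genes of oxidative phosphorylation that lie in the nuclear genome, taken here by symbol: Nduf genes of the a, b, c, s and v series, Sdha to Sdhd, Uqcr genes, Cox4 to Cox8 genes and Atp5 genes. The rule gave 84 of the 24002 gene symbols in the deposited RNA-seq table, and it used no measured value. By symbol, 35 belong to complex I, 4 to complex II, 8 to complex III, 17 to complex IV and 15 to complex V. The remaining 5, Ndufa4, Ndufa4l2, Cox7a2l, Atp5s and Atp5sl, were set aside because their products are not known as fixed subunits of the complex in their symbol.

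RNA-seq of polyadenylated RNA was done on 3 samples of R1, an established mouse embryonic stem cell line. After growth with LIF (1000 U/ml), which keeps such cells undifferentiated, and 15% serum replacement, the cells spent 48 h in hanging drops to form embryoid bodies. These then received retinoic acid, at 0.5 mM as labelled, and were taken at day 6. No genetic change is named, all samples share this treatment, and no untreated or earlier sample was analysed here, so the data give levels and no change. Another 3 samples were profiled for accessible chromatin and were not used here. The label calls the cells embryonic stem cells, but the pluripotency genes Nanog and Pou5f1 averaged 0.0879 ± 0.0318 FPKM and 0.815 ± 0.0792 FPKM (SD, n = 3), while the neuronal tubulin gene Tubb3 averaged 645 ± 8.48 FPKM. Of 6 pluripotency markers 3 reached 1 FPKM in every replicate (50%, against 50.7% of all genes), namely Zfp42, Esrrb and Sox2. Nanog, Pou5f1 and Dppa3 did not. The highest was Sox2, also a gene of neural progenitors, at a mean of 79.5 FPKM. The values are from mixed cells in bulk, in which fewer cells of a type and less RNA per cell cannot be told apart. Whether the 3 replicates were grown as separate cultures is not labelled, and their spread may be technical.

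Values are in FPKM, fragments per length of transcript and scaled to library size, so levels of different genes are set side by side per length. FPKM summed to 494246, 477760 and 524717 in replicates 1, 2 and 3. The number of reads is not given; judged from the step size of low values, replicate 1 was sequenced 1.56 times as deeply as replicate 2 and 1.17 times as deeply as replicate 3.

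The respiratory chain passes electrons from NADH and succinate through complexes I, II and III and cytochrome c to oxygen at complex IV, and the proton gradient built on the way drives ATP synthesis at complex V. Complexes I, III, IV and V are built from nuclear and mitochondrial gene products, complex II from nuclear ones alone. In several tissues a complex IV subunit is replaced by a paralogue, as in heart and skeletal muscle. Nuclear respiratory factor 1 (NRF1), the ETS factor GABP, YY1 and the estrogen-related receptors (ERR) are known as regulators of these genes.

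Promoters of 6 members are shown here to let the reader see such motifs beside the levels: the member with the highest mean, a highly expressed complex IV gene and its paralogue listed at 0, 2 members that hold motifs of more than one of these factors, and a complex I gene listed near 0. Each runs from 250 bases before to 50 after the start, 5′ to 3′, from RefSeq on the build GRCm38.p6. Capitals mark matches, on either strand, to the motifs NRF1 (GCGCA, any base, then GCGC), GABP/ETS (CCGGAAGT), YY1 (AANATGGC), ERR (TNAAGGTCA), the CCAAT box (CCAAT) and the TATA box (TATAAA).
Atp5b (GRCm38.p6, chr10:128083057-128083356, plus strand): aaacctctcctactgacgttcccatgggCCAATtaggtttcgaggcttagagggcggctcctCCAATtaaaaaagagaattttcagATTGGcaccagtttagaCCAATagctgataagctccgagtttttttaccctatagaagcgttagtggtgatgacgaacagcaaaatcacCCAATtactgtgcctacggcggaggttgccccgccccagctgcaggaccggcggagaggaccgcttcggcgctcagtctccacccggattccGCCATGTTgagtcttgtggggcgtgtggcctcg
Cox8a (GRCm38.p6, chr19:7217567-7217866, minus strand): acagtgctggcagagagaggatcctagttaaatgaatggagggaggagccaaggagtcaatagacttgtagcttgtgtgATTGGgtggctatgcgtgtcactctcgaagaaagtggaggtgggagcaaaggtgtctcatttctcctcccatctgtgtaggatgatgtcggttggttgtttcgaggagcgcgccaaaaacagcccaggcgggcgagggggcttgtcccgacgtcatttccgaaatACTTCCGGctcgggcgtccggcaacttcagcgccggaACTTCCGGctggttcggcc
Cox8b (GRCm38.p6, chr7:140900397-140900696, minus strand): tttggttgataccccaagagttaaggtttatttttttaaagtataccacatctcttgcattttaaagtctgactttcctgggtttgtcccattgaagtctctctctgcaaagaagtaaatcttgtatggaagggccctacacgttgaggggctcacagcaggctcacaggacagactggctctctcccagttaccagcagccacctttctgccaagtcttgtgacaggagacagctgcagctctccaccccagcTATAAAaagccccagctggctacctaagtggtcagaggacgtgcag
Atp5h (GRCm38.p6, chr11:115419870-115420169, minus strand): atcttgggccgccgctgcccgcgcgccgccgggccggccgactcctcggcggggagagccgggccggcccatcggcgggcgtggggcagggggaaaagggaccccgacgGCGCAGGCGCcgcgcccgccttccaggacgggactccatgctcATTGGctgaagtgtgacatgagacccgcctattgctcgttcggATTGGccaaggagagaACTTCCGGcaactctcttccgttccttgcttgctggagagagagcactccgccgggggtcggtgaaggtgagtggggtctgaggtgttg
Ndufs6 (GRCm38.p6, chr13:73328433-73328732, minus strand): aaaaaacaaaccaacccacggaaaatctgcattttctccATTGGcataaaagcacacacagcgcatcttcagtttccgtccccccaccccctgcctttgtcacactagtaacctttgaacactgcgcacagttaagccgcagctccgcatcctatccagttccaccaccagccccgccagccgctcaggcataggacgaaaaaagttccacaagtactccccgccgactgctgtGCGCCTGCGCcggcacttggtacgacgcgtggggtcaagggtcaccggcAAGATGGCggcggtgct
Ndufs5 (GRCm38.p6, chr4:123718137-123718436, minus strand): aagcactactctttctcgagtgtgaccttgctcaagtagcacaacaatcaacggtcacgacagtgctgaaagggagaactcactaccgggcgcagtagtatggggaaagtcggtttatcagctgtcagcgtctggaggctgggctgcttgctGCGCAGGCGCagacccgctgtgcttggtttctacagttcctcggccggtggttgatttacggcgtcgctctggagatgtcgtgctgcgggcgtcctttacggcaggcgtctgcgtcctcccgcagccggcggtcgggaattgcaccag
In Atp5b the capitals are 5 CCAAT box matches and a YY1 match beginning at base 18 after the start. Cox8a holds GABP/ETS matches beginning 6 bases before and 32 bases after the start, whereas the Cox8b sequence holds a TATA box match and none of the other motifs. Atp5h holds NRF1 and GABP/ETS matches, Ndufs6 NRF1 and YY1 matches, both with CCAAT boxes, and Ndufs5 an NRF1 match alone.

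Most members were among the higher genes of the table. At least 1 FPKM in every replicate was reached by 78 of the 84 members (92.9%), against 50.7% of all genes. At least 10 FPKM was reached by 73 (86.9%), against 24.5% of all genes, and at least 100 FPKM by 32 (38.1%), against 2.02%. The median of the members' means was 68.9 FPKM, against 1.31 FPKM over all genes and 10.01 FPKM over the 12171 genes at 1 FPKM or more, and the median member stood at percentile 96.6 of all genes. Members summed to 8147, 8118 and 8159 FPKM in replicates 1, 2 and 3, which is 1.63% ± 0.0731 of all summed FPKM (SD, n = 3). The sum over all rows moved with the small RNA genes, without which the share was 2.54%, 2.52% and 2.53%.

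**Figure D1:**
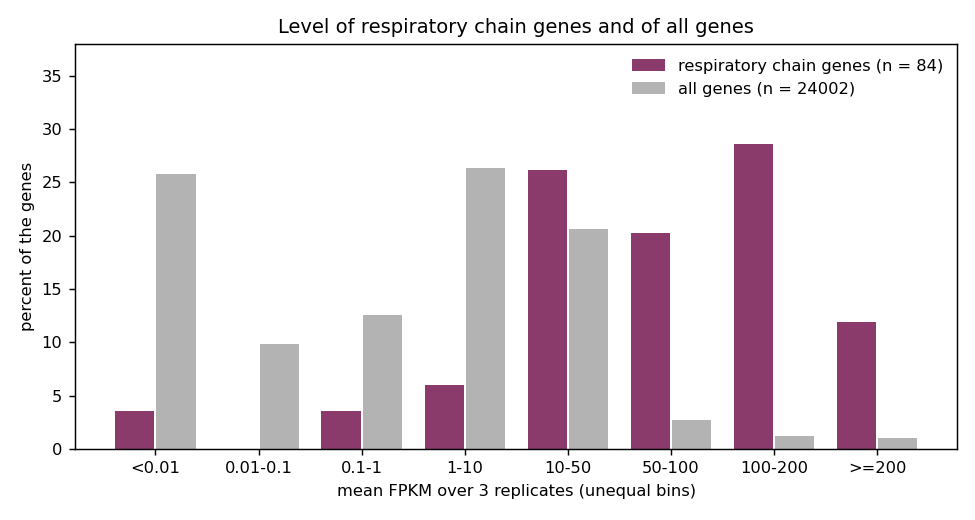
Percent of genes (vertical axis) in each bin of mean FPKM over 3 replicates (horizontal axis, unequal bins), with the 84 respiratory chain genes in purple beside all 24002 genes in grey. Of the respiratory chain genes 28.6% lie between 100 and 200 FPKM, against 1.22% of all genes.

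The 6 members that did not reach 1 FPKM in every replicate were Ndufs5 of complex I and 5 genes of complex IV, Cox4i2, Cox6a2, Cox7b2, Cox8b and Cox8c. The 5 complex IV genes are known as paralogues with restricted expression in adult tissues, whereas Ndufs5 encodes a subunit of complex I in all cells with that complex. Cox6a2 and Cox8b were listed at 0 in every replicate, as were 23.2% of all genes. Values in every sample are given with their complexes.

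**Figure D2:**
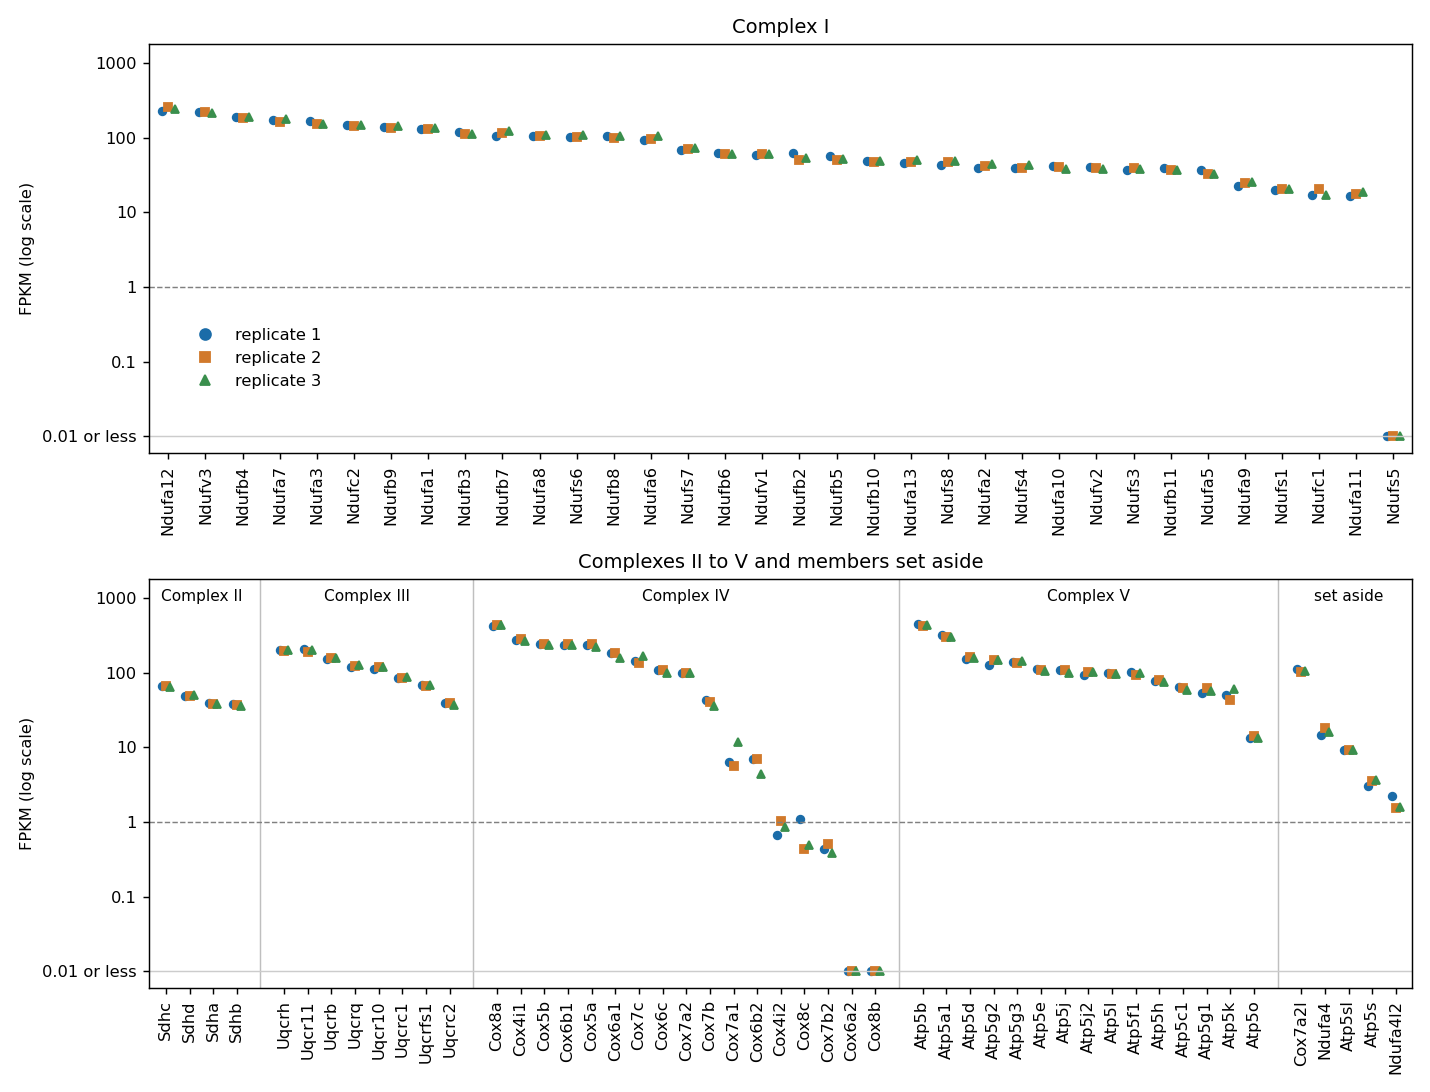
FPKM of respiratory chain genes, all but 1 (vertical axis, log scale) in replicates 1, 2 and 3, ordered by mean within complex I (upper panel) and within complexes II to V and the members set aside (lower panel). The dashed line marks 1 FPKM and the grey line holds values of 0.01 FPKM or less; Ndufs5, Cox6a2 and Cox8b lie on it, and the other members below 1 FPKM in a replicate are Cox4i2, Cox7b2 and Cox8c.

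Complex I, the NADH dehydrogenase, had a median of 55.5 FPKM over its 35 genes, and 12 of them reached 100 FPKM in every replicate. The highest was Ndufa12, an accessory subunit gene, at 226, 259 and 242 FPKM in replicates 1, 2 and 3. Ndufv3, an accessory gene of the NADH-oxidising module, stood at 222, 220.2 and 214 FPKM, and Ndufb4 of the membrane arm at 191, 184 and 189 FPKM. These 3 did not overlap each other in any replicate. At the low end, apart from Ndufs5, Ndufa11, a membrane arm gene, stood at 16.6, 17.4 and 18.6 FPKM and Ndufc1 at 16.8, 20.2 and 17.0 FPKM, and these ranges overlapped.

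The 7 core subunit genes of complex I, which carry its flavin and iron-sulfur clusters or build the quinone site, had a lower median than the accessory genes. Their median was 39.3 FPKM, against 79.8 FPKM over 28 accessory genes, and none of the 7 had a mean of 100 FPKM, against 13 of the 28. Ndufs7, next to the quinone site, was highest at 68.0, 71.4 and 71.6 FPKM. Ndufv1, which binds NADH and the flavin, stood at 58.1, 60.3 and 60.1 FPKM, and its partner Ndufv2 at 40.6, 39.1 and 38.3 FPKM. Both lay well under their module neighbour Ndufv3, which was 3.67 ± 0.130 times Ndufv1 (SD, n = 3). Ndufs8, an iron-sulfur subunit gene, averaged 46.5 ± 2.59 FPKM, and Ndufs3, of the quinone module, averaged 38.3 ± 1.19 FPKM. Ndufs1, the gene of the largest iron-sulfur subunit, was lowest at 19.7, 20.5 and 20.3 FPKM. Between the series, medians were 73.1 FPKM for 12 Ndufa genes, 82.6 FPKM for 10 Ndufb genes and 39.5 FPKM for 8 Ndufs genes.

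Ndufs5 stood apart from every other complex I gene. It was listed at 0.000128, 0.000183 and 0.000142 FPKM in replicates 1, 2 and 3. All 3 values were above 0 and below 0.001, a state shared by 14 of the 24002 genes (0.0583%). The next lowest complex I gene, Ndufa11, averaged 17.5 ± 1.00 FPKM. Such a value can be a failed estimate, so Ndufs5 is said only to be listed near 0, and no fold is given against it. RefSeq names a transcribed pseudogene of this gene, Ndufs5-ps, on chromosome 16, while Ndufs5 itself lies on chromosome 4; the table has no row of that symbol. The reference tables list no older symbol for this copy, so a row under another name cannot be matched to it, and its part in the near-0 value was not tested.

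Complex II, succinate dehydrogenase, had a highest mean 1.78 times its lowest, the smallest such ratio of the complexes. It also has the fewest genes, 4, against 8 to 35 in the others, and added genes can only keep or raise this ratio. Sdhc, a membrane anchor gene, stood at 66.2, 66.1 and 64.0 FPKM, and Sdhd, the other anchor, at 48.8, 49.2 and 50.9 FPKM. The flavoprotein gene Sdha stood at 39.4, 38.1 and 38.6 FPKM and the iron-sulfur gene Sdhb at 38.2, 36.7 and 35.2 FPKM. The anchors were above Sdha and Sdhb in every replicate, and the ranges of Sdha and Sdhb overlapped. No complex II gene reached 100 FPKM.

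Complex III, the cytochrome bc1 complex, had a median of 120.2 FPKM over its 8 genes. The hinge protein gene Uqcrh stood at 202, 198 and 204 FPKM and the small subunit gene Uqcr11 at 207, 189.5 and 199.9 FPKM, with overlapping ranges. Uqcrb, Uqcrq and Uqcr10, all small subunit genes, averaged 155 ± 4.25 FPKM, 123 ± 4.48 FPKM and 117 ± 3.30 FPKM (SD, n = 3). Lower in every replicate were the core protein gene Uqcrc1 at 86.2, 84.4 and 88.3 FPKM, the Rieske iron-sulfur gene Uqcrfs1 at 68.0, 65.8 and 68.8 FPKM and the core protein gene Uqcrc2 at 39.8, 39.1 and 37.1 FPKM. Uqcrc1 was thus above Uqcrc2, its partner in the core, in each replicate. Cyc1, the gene of cytochrome c1, which the symbol rule leaves out, averaged 95.2 ± 1.29 FPKM.

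Complex IV, cytochrome c oxidase, ran from paralogues listed at 0 to a mean of 433 FPKM. Without tissue-restricted paralogues its highest mean was 10.9 times its lowest, over 10 genes. In complex V this ratio was 32.0 over 15 genes, with Atp5o the lowest. The catalytic subunits of complex IV are encoded in the mitochondrial genome, and the nuclear genes encode the surrounding subunits. Cox8a was the highest at 427, 435 and 438 FPKM, followed by Cox4i1 at 275, 282 and 265 FPKM. Cox5b, Cox6b1 and Cox5a averaged 241 ± 3.93 FPKM, 240.2 ± 4.99 FPKM and 232 ± 10.9 FPKM, and neighbours in this order overlapped. Cox6a1, Cox7c, Cox6c and Cox7a2 averaged 175 ± 14.8 FPKM, 149 ± 16.3 FPKM, 106 ± 5.21 FPKM and 98.5 ± 1.18 FPKM. Cox7b, at 43.1, 40.1 and 36.2 FPKM, was the lowest of the 10 genes that remain when tissue-restricted paralogues are left out, over which the median was 203 FPKM, against 98.5 FPKM over all 17.

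The tissue-restricted paralogues were below their widely used partners in every pair and replicate. Cox4i1, at the values above, was 413, 270.4 and 306 times as high as Cox4i2, known from lung and from induction by low oxygen, which stood at 0.666, 1.04 and 0.868 FPKM. Cox6a1 stood at 184, 182 and 157 FPKM and Cox8a at the high values above, while their heart and muscle paralogues Cox6a2 and Cox8b were listed at 0 in every replicate. Cox8a was 386, 999 and 883 times Cox8c, known from testis, which stood at 1.10, 0.436 and 0.496 FPKM, highest in replicate 1. Cox7b was 100.3, 79.2 and 94.4 times Cox7b2, also known from testis, which stood at 0.429, 0.506 and 0.384 FPKM.

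**Figure D3:**
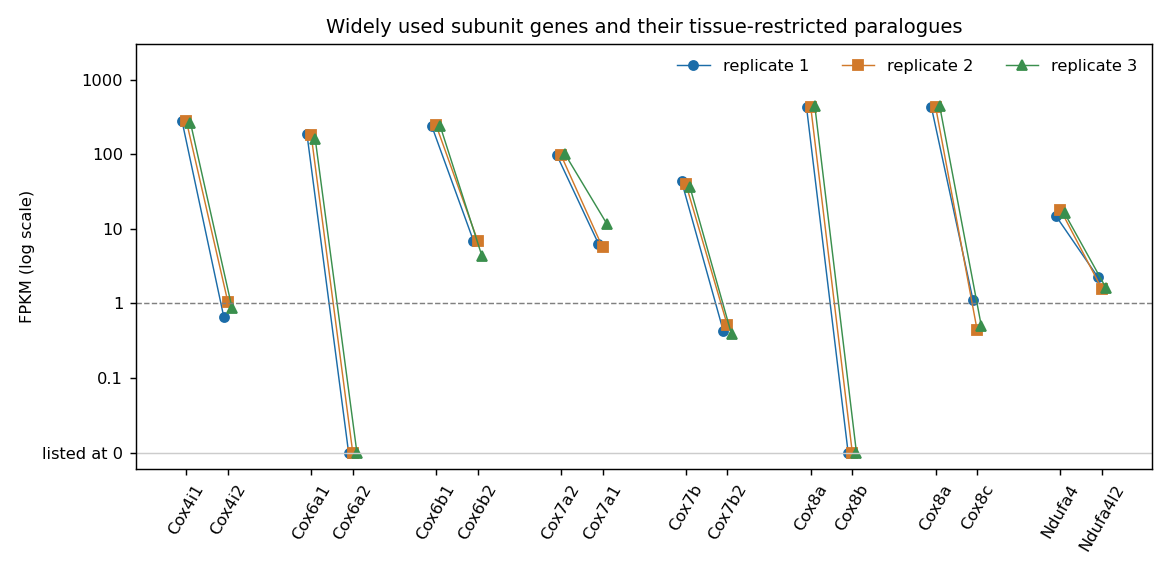
FPKM (vertical axis, log scale) of widely used subunit genes, on the left of each pair, and of their tissue-restricted paralogues, on the right, with a line for each replicate. The dashed line marks 1 FPKM; Cox6a2 and Cox8b are listed at 0 and drawn on the grey line, and only Cox6b2, Cox7a1 and Ndufa4l2 lie above 1 FPKM in every replicate among the paralogues.

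Of the restricted paralogues of complex IV, 2 reached 1 FPKM in every replicate. Cox7a2 stood at 97.8, 97.8 and 99.9 FPKM, against 6.34, 5.66 and 11.8 FPKM for its heart and muscle paralogue Cox7a1. Replicate 3 was the high one for Cox7a1, and its Cox7a2 value was near the others, so the ratio of Cox7a2 to Cox7a1 was 15.4, 17.3 and 8.49. Cox6b1 was 34.4, 35.5 and 54.6 times as high as Cox6b2, its testis paralogue, which stood at 6.88, 6.93 and 4.37 FPKM, with replicate 3 the low one. Of 10 heart and skeletal muscle markers 0 reached 1 FPKM, the highest being Tnni3 with a mean of 0.527 FPKM, and their sum was 1.57, 1.88 and 1.71 FPKM. Of 6 male germ cell markers 3 did (50%, against 50.7% of all genes), and their sum was 4.31, 7.78 and 6.15 FPKM, with Tnp1 and Acrv1 listed at 0 in every replicate. On the log2(FPKM + 1) scale, which understates differences of low genes, the log2 ratio was 7.21 ± 0.137 for Cox4i1 over Cox4i2, 5.12 ± 0.313 for Cox6b1 over Cox6b2 and 3.54 ± 0.489 for Cox7a2 over Cox7a1 (SD, n = 3). It was 4.82 ± 0.108 for Cox7b over Cox7b2 and 8.04 ± 0.321 for Cox8a over Cox8c.

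Complex V, the ATP synthase, held the highest member of all. Its catalytic beta subunit gene Atp5b stood at 448, 424 and 439 FPKM and the alpha subunit gene Atp5a1 at 316, 305 and 302 FPKM. These subunits form the catalytic head in several copies each, whereas the gamma subunit, the rotor shaft, is present once. Its gene Atp5c1 stood at 63.5, 63.1 and 58.2 FPKM, and Atp5b and Atp5a1 were 7.11 ± 0.419 and 5.001 ± 0.184 times Atp5c1 (SD, n = 3). The other rotor genes Atp5d and Atp5e averaged 157 ± 5.79 FPKM and 108 ± 3.62 FPKM. The stalk genes Atp5j, Atp5f1 and Atp5h averaged 106 ± 4.54 FPKM, 97.6 ± 4.57 FPKM and 78.3 ± 2.40 FPKM, and the membrane part genes Atp5j2, Atp5l and Atp5k averaged 99.6 ± 4.68 FPKM, 97.6 ± 1.47 FPKM and 51.1 ± 8.78 FPKM.

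Atp5o, which encodes the subunit that ties the stalk to the catalytic head, was the lowest complex V gene by a wide margin. It stood at 13.5, 14.3 and 13.3 FPKM, and every other complex V gene was at least 42.5 FPKM in every replicate. Atp5b was 32.0 ± 2.02 times Atp5o. The rotor ring subunit c is encoded by 3 genes with the same mature product. Atp5g1 stood at 53.7, 62.4 and 57.3 FPKM, Atp5g2 at 126, 149 and 147 FPKM and Atp5g3 at 138, 133 and 145 FPKM. Atp5g2 and Atp5g3 overlapped and gave 41.6% ± 1.77 and 41.2% ± 2.37 of the summed FPKM of the 3 genes, while Atp5g1, the lowest in every replicate, gave 17.1% ± 0.881. Their sum was 318, 344 and 349 FPKM, near the level of Atp5a1.

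The 5 members set aside had a median of 9.15 FPKM, and their means lay between 1.80 and 106 FPKM. Cox7a2l, which acts in joining complexes into supercomplexes, stood at 111, 104 and 104 FPKM. Ndufa4, now known as a part of complex IV, stood at 14.6, 18.1 and 16.1 FPKM, low for a subunit gene, and its paralogue Ndufa4l2, known from induction by low oxygen, at 2.25, 1.55 and 1.59 FPKM. The log2 ratio of Ndufa4 over Ndufa4l2 was 2.63 ± 0.329 (SD, n = 3), the smallest of the pairs compared here. Atp5sl and Atp5s, whose RefSeq symbols are Dmac2 and Dmac2l, averaged 9.15 ± 0.0694 FPKM and 3.40 ± 0.299 FPKM.

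Replicates lay close together for most members. Over the 73 members averaging 10 FPKM or more, the median SD of log2(FPKM + 1) was 0.0519 and the median coefficient of variation 3.64%, against 0.0486 and 3.52% over all 6116 such genes. The most variable of these members was Atp5k, at 50.8, 42.5 and 60.1 FPKM, low in replicate 2 and high in replicate 3. Cox7c followed at 145, 134 and 166 FPKM, also lowest in replicate 2 and highest in replicate 3. Ndufb2 was highest in replicate 1, at 62.0, 50.7 and 53.8 FPKM. Ndufa4 and Ndufc1, given above, were both highest in replicate 2. Below 10 FPKM the spread was wider, with a coefficient of variation of 42.2% for Cox7a1 and 54.5% for Cox8c.

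**Figure D4:**
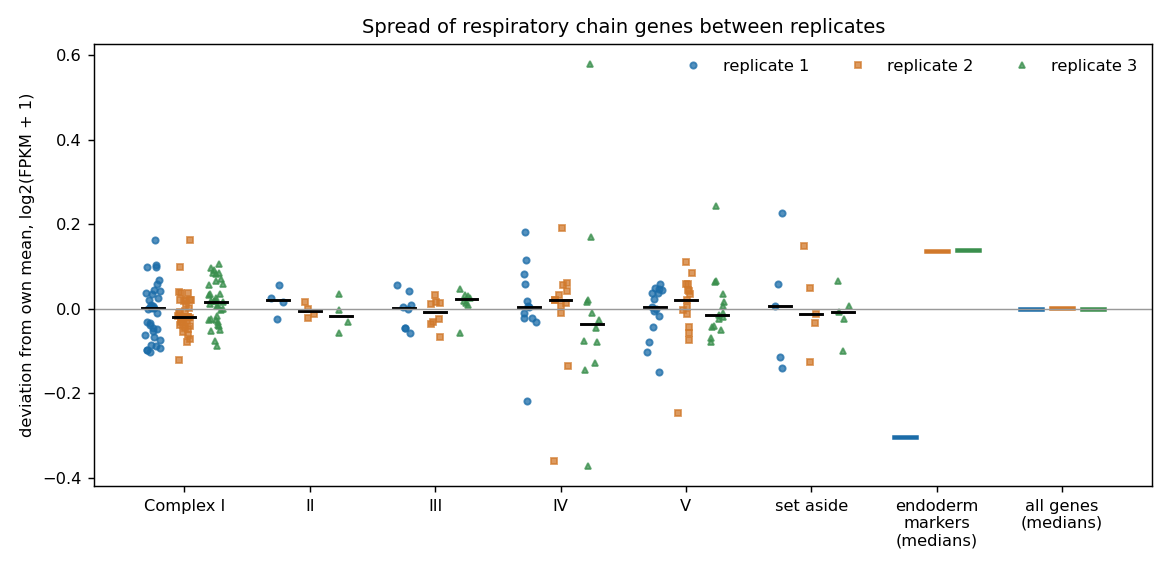
Deviation of each member averaging 1 FPKM or more from its mean over replicates, in log2(FPKM + 1) (vertical axis), by complex and replicate, with black bars at the medians and, on the right, the medians of endoderm markers and of all genes. Complex medians lie between -0.04 and 0.02, while the endoderm markers lie at -0.30 in replicate 1.

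The lowest and the highest values of the members were divided among all 3 replicates. Over the 78 members averaging 1 FPKM or more, the median deviation from the gene's own mean in log2(FPKM + 1) was 0.0035, -0.0031 and 0.0063 in replicates 1, 2 and 3. The lowest value fell in replicate 1 for 26 members (33.3%), in replicate 2 for 29 (37.2%) and in replicate 3 for 23 (29.5%), against 36.6%, 32.1% and 31.3% of all 12432 genes with such a mean. The highest value fell in replicate 1 for 29 members (37.2%), in replicate 2 for 19 (24.4%) and in replicate 3 for 30 (38.5%), against 36.3%, 33.7% and 30.04% of all these genes. These shares were not tested. By complex, replicate 3 held the highest value for 17 of 34 complex I genes and 5 of 8 complex III genes, and the lowest for 7 of 12 complex IV genes and 7 of 15 complex V genes. The medians in replicate 3 were 0.02 for complexes I and III, -0.04 for complex IV and -0.01 for complex V. Over the 7 complex I core genes replicate 1 was lowest for 5. Of 10 extraembryonic endoderm markers 10 were lowest in replicate 1, with median deviations of -0.30, 0.14 and 0.14 and sums of 402, 541 and 549 FPKM. Of 6 neuron markers 6 were highest in replicate 1, with median deviations of 0.05, -0.02 and -0.03, and of 6 neural progenitor markers 5 were lowest in replicate 3, with median deviations of 0.03, 0.0017 and -0.03. The part of these cell types in any member's value was not tested.

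Some member values may be shared with copies or neighbours. RefSeq names 14 pseudogenes by the symbol of 9 members, Atp5c1, Atp5f1, Atp5k, Atp5l, Cox5b, Cox7c, Ndufa12, Ndufs5 and Uqcrh, with 4 of the 14 belonging to Atp5k. Of the 14, 1 has a row in the table under a symbol or synonym listed by RefSeq, Gm10012, listed by RefSeq as Cox7c-ps1. Cox7c stood at 145, 134 and 166 FPKM, beside 54.5, 43.9 and 42.6 FPKM for this copy, and the highest replicate of the copy was not that of Cox7c. The split of reads between them is uncertain. In RefSeq on GRCm38.p6, 15 members overlap another protein-coding gene, among them Atp5j with Gabpa, the gene of the GABP DNA-binding subunit, at 7.73, 8.47 and 8.06 FPKM. Cox4i2, at a mean of 0.859 FPKM, overlaps Bcl2l1, at a mean of 48.5 FPKM. Ndufa4l2, at a mean of 1.80 FPKM, overlaps Shmt2, at a mean of 14.8 FPKM. Whether counting used strand is unknown, and reads in such overlaps are uncertain, as are the ratios against Cox4i2 and Ndufa4l2. Neither named pseudogenes nor overlaps were counted over all genes, so whether these counts are unusual is not known.

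Among the motifs of the known regulators, those of NRF1 and YY1 were found in more member promoters than those of GABP/ETS and ERR. RefSeq promoters were found for 69 of the 84 members. An NRF1 match was found in 17 (24.6%), against 12.03% of 9184 genes at 1 FPKM or more and 5.19% of all 27025 genes with a promoter. A YY1 match was found in 18 (26.1%), against 10.4% and 6.96%. A GABP/ETS match was found in 5 members, Atp5h, Cox8a, Ndufs3, Uqcr11 and Uqcrh (7.25%, against 9.33% and 4.31%), and an ERR match in 3, Atp5g3, Ndufb4 and Sdhd (4.35%, against 0.871% and 1.43%). CCAAT boxes were found in 31 members (44.9%, against 43.5% and 41.1%) and TATA boxes in 7 (10.1%, against 7.91% and 15.7%). A match is a description of letters, and binding was not measured. The YY1 motif holds the letters ATG of a start codon, and matches at start codons were not told apart from others.

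**Figure D5:**
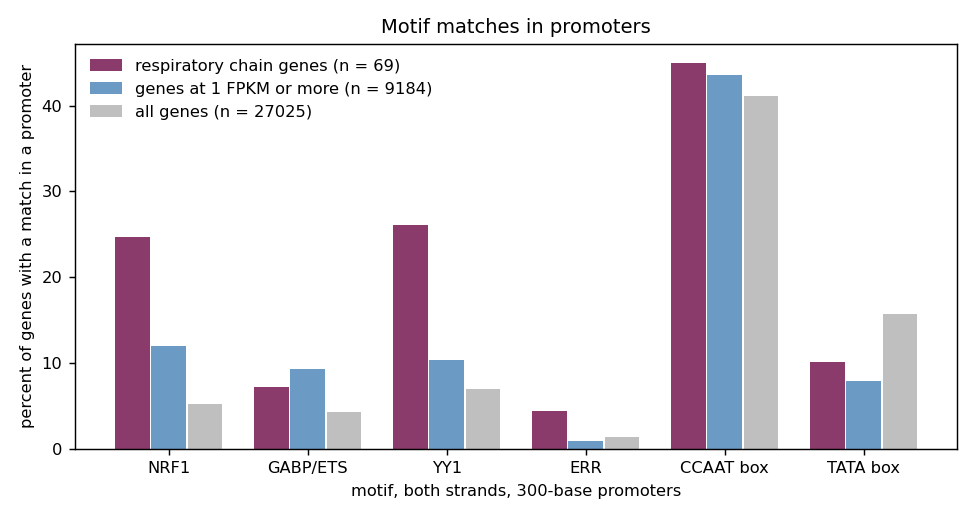
Percent of genes with at least 1 match to each motif on either strand in a RefSeq promoter of 300 bases (vertical axis), for 69 respiratory chain genes, for 9184 genes at 1 FPKM or more and for all 27025 genes with a promoter. NRF1 matches were in 24.6% of respiratory chain genes, against 12.03% of genes at 1 FPKM or more and 5.19% of all genes. For YY1 these shares were 26.1%, 10.4% and 6.96%.

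NRF1 and YY1 matches differed in count between the complexes, which was not tested, and met in 1 promoter. Of 31 complex I genes with a promoter 7 held NRF1 and 12 held YY1 matches, of 14 complex V genes 6 and 4, and of 12 complex IV genes 1 and 1. Of the 69 members, 33 held a motif of 1 of the 4 factors, 5 held motifs of 2 (Atp5g3, Atp5h, Ndufb4, Ndufs6 and Sdhd) and 31 held none. Such combinations were not counted over other genes, so whether these numbers are unusual is not known. Ndufs6, shown above, was the member that held both NRF1 and YY1. No matches of different motifs overlapped. Levels of members with and without a match overlapped: the 17 members with an NRF1 match had a median of 78.3 FPKM and ran from the near-0 Ndufs5 to 188 FPKM, against a median of 83.96 FPKM over the 52 without one. The 18 with a YY1 match had a median of 61.6 FPKM, against 86.3 FPKM over the 51 without. Of 20 YY1 matches in member promoters 13 (65%) began no more than 50 bases before the start or after it, against 46.1% of 2104 in all promoters, and of 24 NRF1 matches 13 (54.2%) did, against 48.6% of 1791. Start of transcription is meant here, and how many of the YY1 matches lie at a start codon was not tested. Matches were counted per promoter, and where promoters overlap a site counts in each: the members' matches are 19 YY1 and 23 NRF1 sites in the genome, with 1 site of Atp5sl and 1 of Ndufa5 in 2 promoters, and those of all promoters are 1880 and 1452 sites.

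Genes around the respiratory chain reached 1 FPKM in every replicate in nearly every case, against 50.7% of all genes. The complex I subunit median was 55.5 FPKM, against 7.41 FPKM over 13 complex I assembly factors, of which 13 reached 1 FPKM in every replicate. Of the assembly factors of complexes II to V, 25 have a row and 24 of these did, with a median of 8.54 FPKM and Lyrm7 the exception at a mean of 0.921 FPKM. All 77 mitochondrial ribosomal protein genes did (median 20.6 FPKM), as did all 16 citric acid cycle genes (29.6 FPKM) and 11 of 12 coenzyme Q synthesis genes (6.64 FPKM), with Adck3 the exception. All 17 glycolysis genes in the table did, with the highest median of these pathway lists, 126.8 FPKM, led by Pkm at 617, 568 and 559 FPKM. Cycs, the gene of the widely used cytochrome c, averaged 33.6 ± 0.366 FPKM, and its testis paralogue Cyct 1.03 ± 0.261 FPKM. None of the 13 mitochondrially encoded subunit genes has a row under the symbols searched, so nuclear and mitochondrial subunits were not set side by side.

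In a wider list of regulator genes, 18 of 18 were at 1 FPKM or more in every replicate, against 50.7% of all genes. Beside genes of NRF1, GABP, YY1 and ERR, the list held Sp1, Hif1a, Epas1 and coactivator genes. It also held Tfam, Tfb1m, Tfb2m and Polrmt, which act on mitochondrial DNA and not on the members. Levels over the list were modest, with a median of 8.89 FPKM. Yy1 was highest at 37.0, 37.1 and 37.5 FPKM, and Nrf1, Gabpa and Esrra averaged 11.1 ± 0.112 FPKM, 8.09 ± 0.366 FPKM and 12.8 ± 0.630 FPKM (SD, n = 3). Tfam, which packages and transcribes mitochondrial DNA, averaged 9.60 ± 0.392 FPKM. The coactivator genes were low, with Ppargc1a at 1.89, 1.59 and 1.62 FPKM and Ppargc1b lowest of the list at a mean of 1.17 FPKM.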

How the data were processed

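Polyadenylated RNA of 3 samples was sequenced. Per the submitters' processing notes, Bowtie and Cufflinks were used with the build mm9; no versions are stated. The deposited table has a column per replicate and no unit in its header; its values were read as FPKM that the authors made with Cufflinks, from those notes and from the form of the values. No source used here says whether libraries were also scaled to each other. Accessible regions are in mm9, for which no annotation was at hand, and were not used. Members and lists were chosen with earlier results of these data known. With 1 condition no test was made; counts and medians stand beside those over all genes. The threshold was 1 FPKM in every replicate, and logs are log2(FPKM + 1). Relative depth is the most common ratio of values between 0.001 and 0.1 FPKM, with a tolerance of 0.004 (natural log), taken as equal read numbers. Named genes were the 3 highest and 3 lowest of each complex, all of complexes II and III, members under 1 FPKM, paralogue pairs, the Atp5g and core complex I genes, members set aside and the 5 most variable at a mean of at least 10 FPKM; others were named after their values were seen. 1 member is counted in sums and medians, but its own values are not reported here. All 84 members matched a RefSeq gene, 81 by symbol and 3 by synonym. Python 3.11.15, pandas 2.3.3 and numpy 2.4.6 were used, and the steps were tested on simulated data.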

Additional observations from a re-analysis of the deposited data

How the results depend on the processing

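The number of members at 1 FPKM or more in every replicate, 78, was 79 at a threshold of 0.5 FPKM and 75 at 5 FPKM. It stayed 78 under upper quartile scaling and with each replicate left out. A lower threshold or fewer replicates can only keep or raise this count, which is at most 84, so these settings could not move it by 1.5 times. In all, 83 of 98 values under the alternatives moved by less than the spread between replicates (for motif shares, by less than their 95% Wilson interval; for counts and SDs, by less than 1.5 times). Without the 3 members under 0.01 FPKM, the median over members was 78.3 FPKM and that of complex IV 106 FPKM. Without small RNA genes, members held 2.53% of summed FPKM. With a pseudocount of 0.1 in place of 1, the log2 ratio was 8.18 for Cox4i1 over Cox4i2, 6.21 for Cox7b over Cox7b2, 9.22 for Cox8a over Cox8c and 3.12 for Ndufa4 over Ndufa4l2. The median of complex V lay between 98.4 and 102 FPKM with a replicate left out. On the given strand alone, GABP/ETS and ERR matches were in 1.45% of members each, against 2.35% and 0.747% of all genes, so that the GABP/ETS share lay below that of all genes where both strands put it above. CCAAT boxes were then in 24.6%, against 23.7%, and TATA boxes in 4.35%, against 9.77%. In the 150 bases nearest the start, CCAAT boxes were in 29.0%, against 26.3%, and TATA boxes in 4.35%, against 8.08%. No paired analysis was possible because the RNA-seq samples form 1 group. Without read counts, no counting interval can be given, and values listed at or near 0 do not show that a gene is silent.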
